A study of Cucumis melo with 27 samples.

Results

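Of the 25200 melon genes counted in leaf and fruit, 36 (0.143%) held a steady share of the counts across both organs. Their spread between libraries is given here as that of candidate reference genes. They were chosen by CPM, the share of a library's counts that a gene takes, scaled to the same total in every library. A gene was called steady where it had at least 50 CPM in each of the 27 libraries and where the highest of the 9 group means was under 2 times the lowest. The level condition alone was met by 607 genes, of which the 36 are 5.93%, and the other 571 serve as the genes set against them below. Because these CPM values chose the members, their levels and ratios are a description and carry no test. Steady here means steady by CPM. With the TMM and median-of-ratios scaling described below, 9 and 3 of the 36 met the same rule.

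The libraries came from melon (Cucumis melo) plants transplanted as seedlings to a field and grown under standard commercial practice. The labels give 9 groups of 3 libraries. The leaf group is 14-day-old leaves of the cultivar F39, and no leaf library of the other cultivar was analysed here. Fruit of the cultivars TTDV and F39 was harvested at 20-25, 30-35, 40 and 45 days (d) after flowering. No treatment or engineered allele is named for any group. Whether the 3 libraries of each group stem from different plants is not stated, and the tests below measure only their spread, which may be technical. For 12 libraries, in the groups F39 45 d and TTDV 20-25, 30-35 and 40 d, the library number in the sample's title differs from that in the name of the attached file. Groups here follow the attachment. The same libraries fall together in 3s either way, so the choice of the 36 genes does not depend on the match, but the cultivar or age given to those 4 groups does.

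Reference genes, often called housekeeping genes, are those whose RNA level is taken to be steady enough for the levels of other genes to be divided by it, as in quantitative PCR. Genes for the cytoskeleton, ubiquitin, translation and basic metabolism are the classical choices in plants. A gene that holds its level in one organ may not do so in another, so candidates are usually checked across the organs and stages under study and several are averaged. A CPM value is a share of a library, so a gene with a constant number of RNA molecules per cell changes in CPM when other genes take up more or less of the library.

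Library totals ran between 6025615 and 28731038 counts. The lowest count of any steady gene in any library was 327, which carries a counting error (SD) of 0.0798 on the log2 scale. Averaged over a gene's 27 values, the counting error was at most 0.05, well under the spreads given below. The deposited files list the genes by MELO3C identifiers alone and do not pair them with names, and 0 of the 25200 identifiers matched the RefSeq gene table, so the genes are given by identifier and their functions are not stated. For the same reason the leaf and fruit labels could not be checked against marker genes. CPM is not corrected for gene length, so levels are compared between libraries and not between genes.

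Just inside the ratio limit of the rule were MELO3C009538.2, MELO3C018950.2 and MELO3C027308.2, with ratios of highest to lowest group mean of 1.99, 1.99 and 1.98. Just outside it were MELO3C016924.2, MELO3C011778.2 and MELO3C017843.2, with ratios of 2.02, 2.03 and 2.04. At the level limit, the lowest library stood at 50.3 CPM for MELO3C010958.2, at 50.6 CPM for MELO3C027308.2 and at 51.5 CPM for MELO3C010842.2. The nearest genes that failed it were MELO3C026633.2 at 46.9 CPM, MELO3C021394.2 at 46.3 CPM and MELO3C004917.2 at 46.2 CPM. On both measures the step across the limit was wider than the steps between the genes on either side of it. Without the level limit 212 genes kept their group means within 2-fold, and 176 of them were under 50 CPM in at least 1 library.

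**Figure D1:**
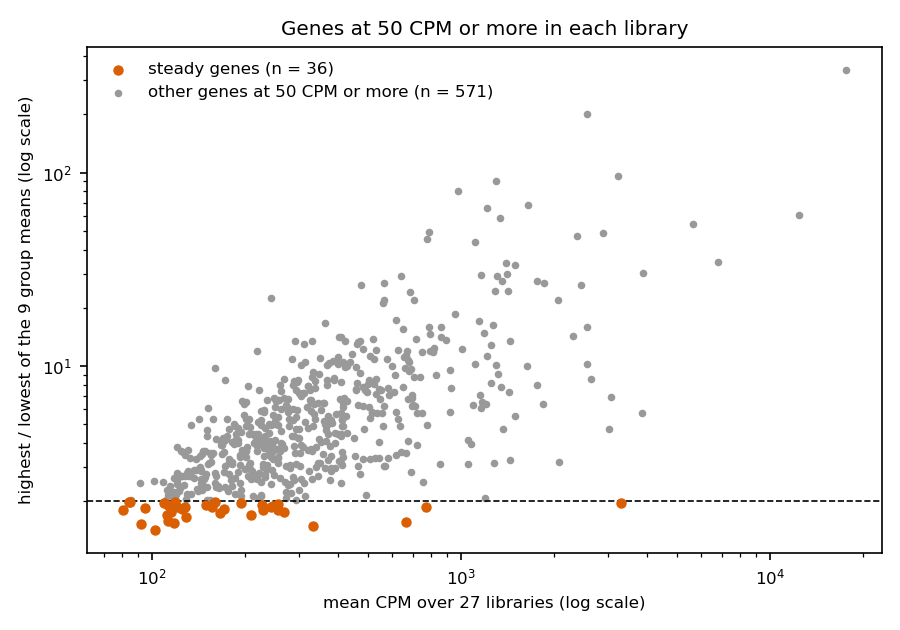
Each point is 1 of the 607 genes at 50 CPM or more in every library, with its mean CPM over 27 libraries on the horizontal axis and its ratio of highest to lowest group mean on the vertical axis, both on log scales. Orange points are the 36 steady genes, at ratios of 1.41 to 1.99 below the dashed line at 2; grey points are the other 571 genes, whose median ratio was 4.75.

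The 36 genes were less uniform between single libraries than between group means. The ratio of highest to lowest group mean had a median of 1.85 (range 1.41 to 1.99), but the ratio of highest to lowest library had a median of 3.11 (range 2.19 to 5.41). For the other 571 genes those medians were 4.75 and 7.92. None of the 36, and none of the 607, stayed within 2-fold over all 27 libraries, and 15 of the 36 stayed within 3-fold, against 13 of the other 571. The standard deviation (SD) of log2 CPM over the 27 libraries had a median of 0.40 in the steady genes (range 0.28 to 0.59), against 0.79 in the other genes. As a coefficient of variation of CPM these medians were 27.9% and 50.6%.

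The gene with the smallest SD of log2 CPM, 0.28, was MELO3C012522.2, at 165 ± 33.4 CPM (SD, n = 27 libraries). In leaf it had 112, 127 and 139 CPM. In TTDV fruit it had 139, 135 and 156 CPM at 20-25 d, 151, 159.9 and 133 CPM at 30-35 d, 228, 169.6 and 263 CPM at 40 d, and 170.2, 166 and 149 CPM at 45 d. In F39 fruit it had 122, 187 and 162 CPM at 20-25 d, 194, 195 and 205 CPM at 30-35 d, 169, 148 and 170.4 CPM at 40 d, and 187, 182 and 145 CPM at 45 d. Leaf was its lowest group and TTDV fruit at 40 d its highest, and the leaf libraries overlapped those of 3 of the 8 fruit groups, TTDV at 20-25 d and 30-35 d and F39 at 20-25 d.

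MELO3C012445.2 had the smallest ratio of group means, 1.41, and an SD of log2 CPM of 0.29. It had 92.5, 97.9 and 111 CPM in leaf. In TTDV fruit it had 83.7, 71.9 and 128 CPM at 20-25 d, 130.0, 117 and 84.6 CPM at 30-35 d, 105, 86.3 and 124 CPM at 40 d, and 64.2, 95.9 and 83.0 CPM at 45 d. In F39 fruit it had 96.6, 109 and 105 CPM at 20-25 d, 115, 82.7 and 146 CPM at 30-35 d, 104, 71.7 and 127 CPM at 40 d, and 104, 113 and 105 CPM at 45 d. Its leaf values lay inside the range of the fruit values, and its lowest and highest libraries, TTDV 45 d replicate 1 and F39 30-35 d replicate 3, were both fruit.

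MELO3C018569.2 was the next in order of SD, also at 0.29, with a mean of 92.1 ± 17.8 CPM (SD, n = 27). Its leaf libraries had 128, 104 and 90.4 CPM. Its TTDV fruit libraries lay between 53.5 and 135 CPM, and its F39 fruit libraries reached 114 CPM. Leaf was its highest group, but the leaf values overlapped those of both cultivars' fruit. MELO3C015706.2 averaged 129 ± 27.4 CPM, with an SD of log2 CPM of 0.31. The next, MELO3C025275.2, averaged 333 ± 73.7 CPM and had the smallest ratio between single libraries of all 36, 2.19, with 218 CPM in a TTDV 45 d library as the lowest value and 477 CPM in an F39 30-35 d library as the highest. In leaf it had 260.0, 285 and 293 CPM, inside the fruit range.

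The remaining 5 of the 10 smallest SDs were close together. MELO3C021059.2 had an SD of log2 CPM of 0.32 around a mean of 118 CPM, MELO3C005589.2 one of 0.33 around 111 CPM, and MELO3C018502.2 one of 0.33 around 209 CPM. MELO3C007468.2 had 0.34 around 125 CPM, and MELO3C016381.2 had 0.36 around 109 CPM. The last of these had a ratio of group means of 1.95, near the limit, but a ratio of single libraries of 2.23, the second smallest of the 36. A gene could therefore be steady by one of these measures and near the limit by the other.

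**Figure D2:**
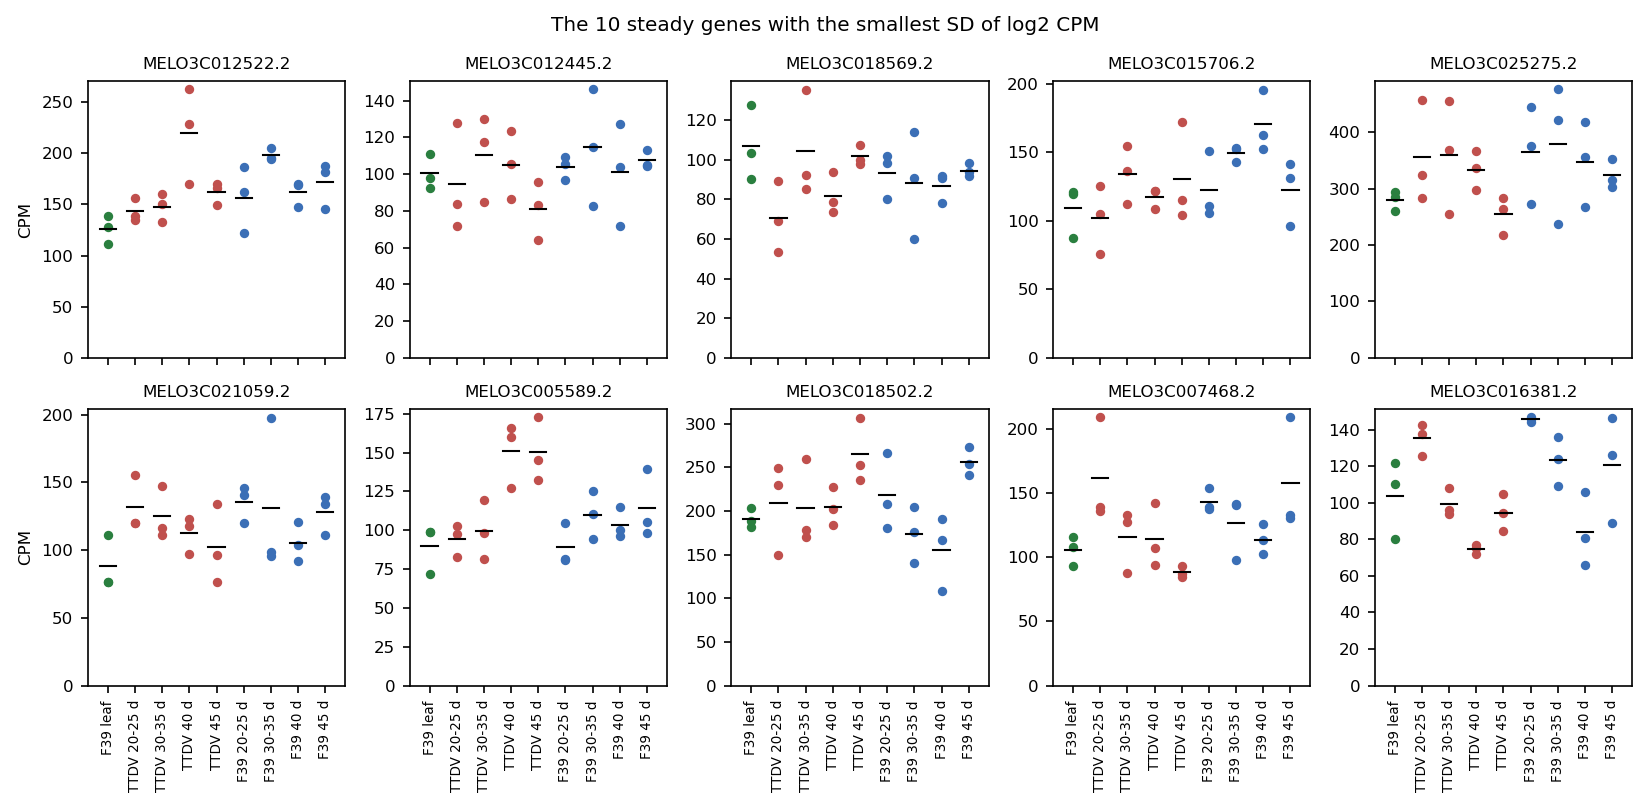
CPM in each of the 27 libraries for the 10 steady genes with the smallest SD of log2 CPM, 1 panel per gene, with groups along the horizontal axis; points are libraries (green leaf, red TTDV fruit, blue F39 fruit) and bars are group means. The SDs run between 0.28 and 0.36, and some groups stand apart, such as TTDV fruit at 40 d (72.0 to 76.8 CPM) and at 20-25 d (126 to 143 CPM) in MELO3C016381.2.

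The widest of the steady genes was MELO3C005446.2, with an SD of log2 CPM of 0.59 and a ratio of single libraries of 5.41. It had 58.8, 95.6 and 159 CPM in leaf. TTDV fruit had 128, 134 and 318 CPM at 20-25 d, 124, 222 and 103 CPM at 30-35 d, 162, 134 and 235 CPM at 40 d, and 78.4, 179 and 197 CPM at 45 d. F39 fruit had 174, 198 and 247 CPM at 20-25 d, 215, 114 and 234 CPM at 30-35 d, 118, 72.2 and 129 CPM at 40 d, and 119.9, 210.4 and 153 CPM at 45 d. Libraries of the same group differed by more than 2-fold in leaf and in 4 of the 8 fruit groups. MELO3C018148.2 and MELO3C009306.2 came next, with SDs of 0.56 and 0.55. Both had their lowest leaf value in replicate 1, at 133 and 101 CPM, and their highest leaf value in replicate 3, at 289.9 and 314 CPM, the same order as MELO3C005446.2. These 3 genes met the rule through their group means while single libraries of a group stood far apart.

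Libraries of the same group differed in the other steady genes too. The SD of log2 CPM between libraries of the same group had a median of 0.35 in the steady genes (range 0.19 to 0.57), and the SD of the 9 group means had a median of 0.29. The spread within groups was the larger in 26 of the 36 genes, against 48 of the other 571. A mean of 3 libraries varies less than a single library, so these SDs are not like for like. From the spread within groups alone, the expected SD of group means had a median of 0.20 in the steady genes, against 0.29 observed. The observed value was below the expected one in 4 of the 36. In most of the 36, group means thus spread more than expected from replicate spread alone. The other 571 genes had medians of 0.43 within groups and 0.72 between group means. The rule capped the spread of group means and put no limit on the spread within a group, so the count of 26 follows in part from the choice.

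The spread within a group was not even over the groups. Its median over the 36 genes was 0.25 in leaf. In the order of the 4 ages, it was 0.36, 0.33, 0.20 and 0.39 in TTDV fruit and 0.27, 0.34, 0.24 and 0.24 in F39 fruit. TTDV fruit at 45 d was the widest group, with 11 genes whose 3 libraries differed by 2-fold or more, and TTDV and F39 fruit at 40 d had 2 such genes each.

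The extremes of the steady genes were not spread evenly over the libraries. TTDV 45 d replicate 1 was the lowest of the 27 for 7 of the steady genes and the highest for 3 of them. Their median deviation from their own mean log2 CPM there was -0.45, with an SD of 0.66 between genes, and that of the other 571 genes was -0.28. The steady genes together made up 0.695% of the counts in that library, the lowest share of the 27, and 1.46% in TTDV 30-35 d replicate 2, the highest. The next lowest median deviation was -0.30, in F39 40 d replicate 2, where the share was 0.704%. Other libraries held extremes too. TTDV 30-35 d replicate 2 was the highest for 7 genes and the lowest for 1. TTDV 20-25 d replicate 3 was the highest for 5 and the lowest for 3, and leaf replicate 1 was the lowest for 6. Without TTDV 45 d replicate 1, 38 genes met the rule, 35 of them among the 36, so the set did not rest on it.

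**Figure D3:**
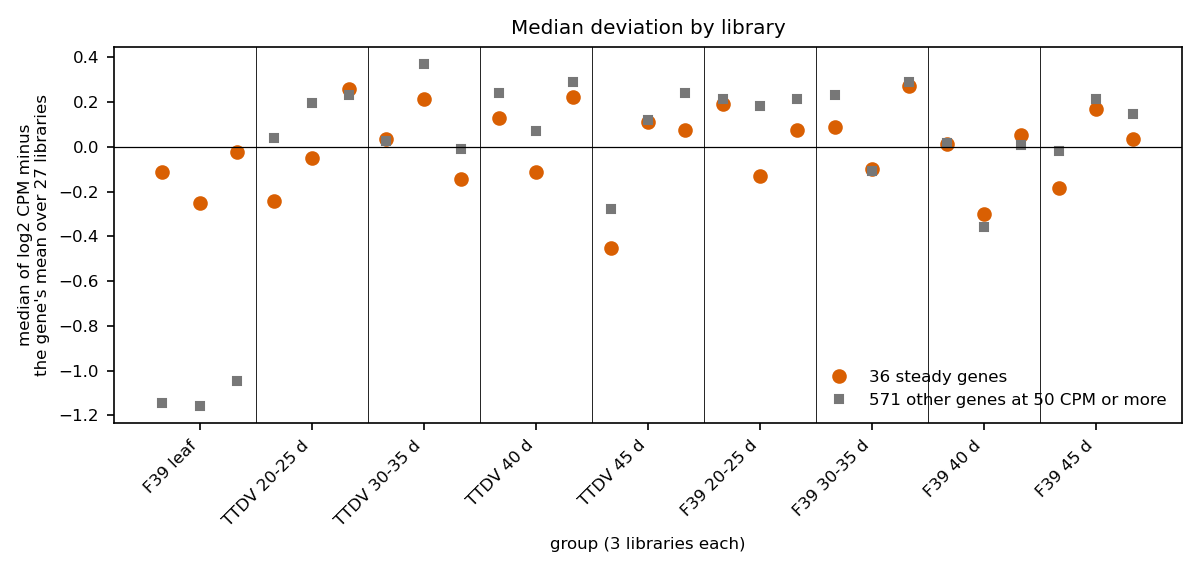
Deviation of each library from a gene's own mean log2 CPM, as the median over the 36 steady genes (orange) and over the other 571 genes at 50 CPM or more (grey), with libraries in their groups. The 3 leaf libraries sit at -0.25 to -0.02 for the steady genes and at -1.16 to -1.05 for the others, and TTDV 45 d replicate 1 is the lowest for the steady genes at -0.45.

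On the CPM scale that chose them, the extremes of the steady genes were spread over several groups, with leaf the most frequent at both ends. Leaf had the highest group mean in 8 of them and the lowest in 10, and lay inside the range of the 8 fruit means in the other 18. It was thus the lowest group for 27.8% of the steady genes, against 69.2% (395) of the other 571. It was the highest for 22.2% of the steady genes, against 9.11% (52) of the other 571. Within fruit, F39 at 20-25 d and 30-35 d and TTDV at 40 d were each the highest group for 6 steady genes. F39 at 45 d was the lowest for 7 and F39 at 40 d for 6. In 8 genes the 8 fruit means alone stayed within 1.5-fold, MELO3C012445.2, MELO3C018569.2 and MELO3C025275.2 among them. All 3 leaf libraries lay below all 24 fruit libraries in 1 steady gene, MELO3C014946.2, with 68.5, 74.6 and 71.3 CPM in leaf and 77.0, 119 and 186 CPM as the lowest, median and highest of the fruit libraries. This gene was picked with its values known. By CPM, in none of the 36 did all leaf libraries lie above all fruit libraries.

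**Figure D4:**
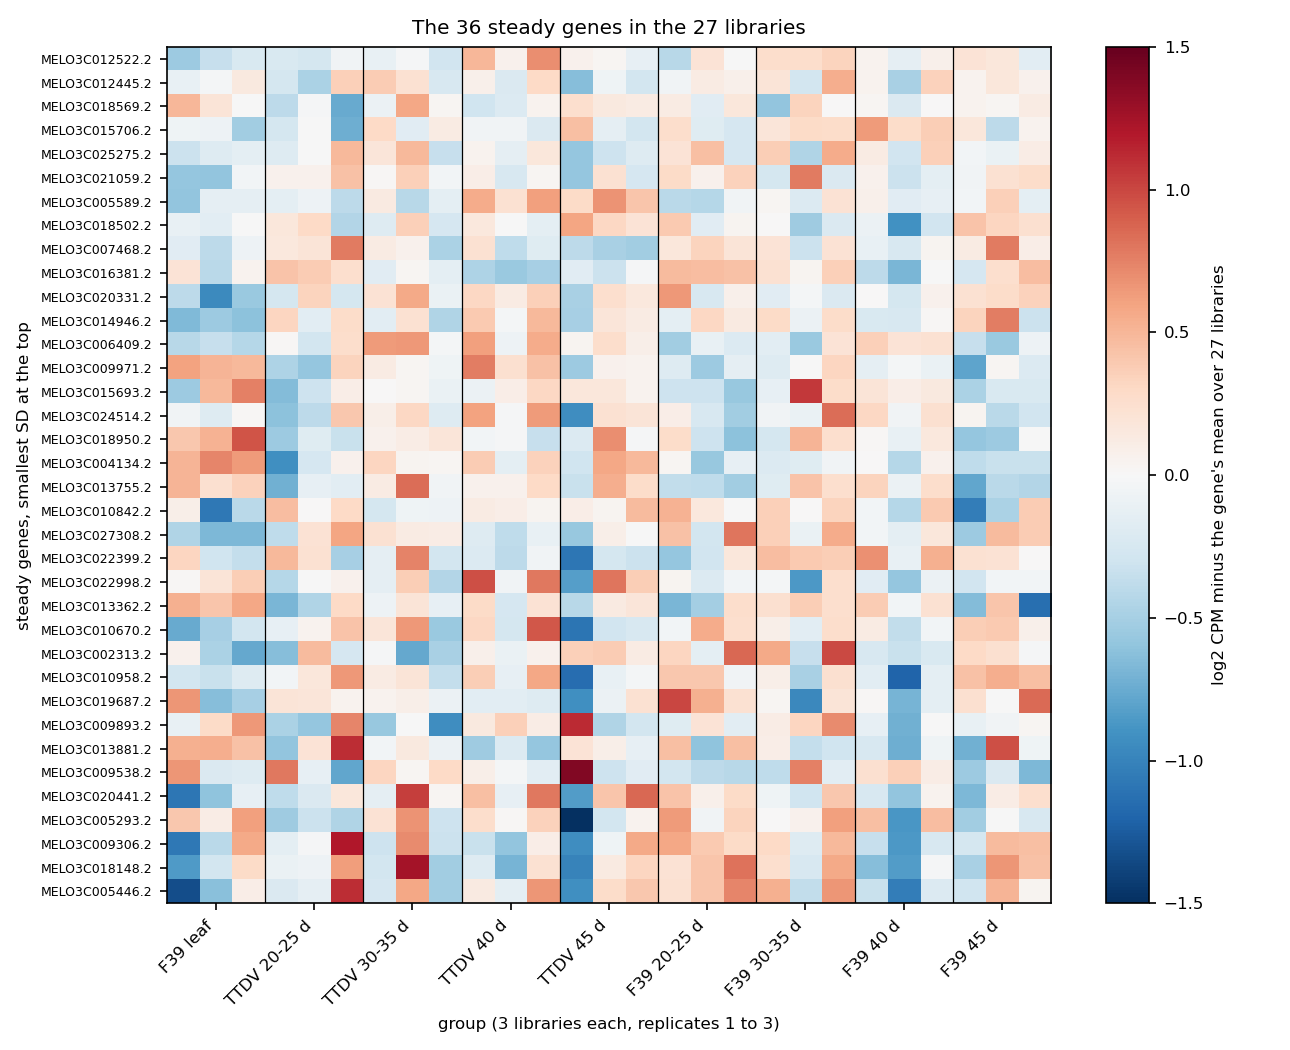
Colour shows log2 CPM minus the gene's own mean over 27 libraries (red above, blue below), for the 36 steady genes (rows, in order of their SD, smallest at the top) and the 27 libraries (columns, 3 per group). The upper rows are pale and the lower rows, with SDs up to 0.59, hold the strongest colours, often in a single library of a group.

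The steady genes were also compared with each other, which needs no scaling to library size. The geNorm stability value M of a gene is the mean, over the other genes, of the SD of the log2 ratio between both genes across libraries, so a low M means that ratios hold steady. Among the 36, M had a median of 0.53 (range 0.43 to 0.71). The lowest values were 0.43 for MELO3C012445.2, 0.45 for MELO3C025275.2 and 0.46 for MELO3C012522.2, all among the 5 genes with the smallest SD. Both measures come from the same counts, so this overlap is no separate support. The gene with the highest M was then removed again and again, and MELO3C012522.2 went with 7 genes left. The last 5 genes held MELO3C010958.2 and MELO3C010670.2, with SDs of log2 CPM of 0.46 and 0.45. MELO3C025275.2 and MELO3C012445.2 were left as the last pair. The ratio of their CPM lay between 2.59 and 4.52 over the 27 libraries, with a median of 3.28 and an SD of 0.20 on the log2 scale, smaller than the SD of either gene alone.

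Averaging narrowed the spread. The geometric mean of the 3 genes with the smallest SD had an SD of log2 CPM of 0.16 and a ratio of 1.56 between its highest and lowest library, against 0.28 and 2.36 for the best single gene. With 5 genes these were 0.15 and 1.52, with 10 genes 0.13 and 1.44, and with all 36 genes 0.17 and 1.59. The pairwise variation that geNorm gives for adding a further gene follows its own order of removal and not that of SD. Starting with the last pair, it was 0.095 on going to 3 genes, with MELO3C007468.2 added. It was 0.073 on going to 4 genes, with MELO3C010670.2 added. These averages and variations were taken over the same libraries in which the genes were chosen.

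Set among all 607 genes, the steady genes were less distinct. With M taken over the 607 genes, their median was 0.89, against 1.01 for the other 571, and 14 of them were among the 100 genes with the lowest M. The best placed was MELO3C014946.2, at rank 10. Over the 24 fruit libraries alone, the medians were 0.76 and 0.90, and 23 of the 36 were among the 100 lowest. The set holds only 36 genes, so most of any 100 genes must lie outside it, and nothing is read from that. The median rank of the 36 among the 607 was 137 over all libraries and 81 over the fruit libraries.

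The rule was also applied to 8 groups at a time, to read steadiness in libraries that this choice had not used. The genes it found were followed in the group left out. A gene that meets the rule over all groups meets it over any part of them, so those that held are the 36 each time. Each share is thus 36 out of the number found, and only that number varies. Without F39 fruit at 20-25 d it found 37 genes, of which 36 (97.3%) also met the rule with that group. Without the other fruit groups it found 40 to 45 genes, and the lowest share that held was 80.0%, for TTDV fruit at 40 d. Without leaf it found 386 genes, among 1302 at 50 CPM or more in every fruit library, and 36 of the 386 (9.33%) met the rule once leaf was added. Of the 386, 350 had a leaf mean below their lowest fruit group, 18 had one above their highest, and 242 fell under 50 CPM in at least 1 leaf library. Genes chosen as steady in fruit at 8 combinations of cultivar and age were therefore mostly lower in leaf on the CPM scale. When only the 15 libraries with agreeing numbers were used, 82 genes were found and 36 of them (43.9%) held in the other 12.

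How leaf compares with fruit depended on the scaling. The 10 most abundant genes of each leaf library took 28.6 to 30.2% of its counts, against 6.11 to 17.9% in fruit libraries. TMM scaling, which sets libraries level on the bulk of their genes, gave leaf factors of 0.530 to 0.604 and fruit factors of 0.870 to 1.30. Median-of-ratios scaling gave 0.459 to 0.506 in leaf and 0.849 to 1.35 in fruit. If the 36 steady genes are set level instead, the factors were 0.845 to 0.989 in leaf and 0.734 to 1.21 in fruit. Dividing by these genes and dividing by the bulk of genes thus place leaf at different levels against fruit.

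On the CPM scale the leaf mean of a steady gene was a median of 0.868 times its mean over the fruit groups. On the TMM scale this was 1.67 times, and on the median-of-ratios scale 1.996 times. Leaf was the highest group in 8 of the 36 genes by CPM, in 33 by TMM and in 36 by median-of-ratios scaling. All leaf libraries lay above all fruit libraries in 0, 12 and 20 of them on those 3 scales. Within fruit the scales differed little: the 8 fruit means stayed within 2-fold in 36, 34 and 33 of the genes, and the median SD over fruit libraries was 0.37, 0.38 and 0.38.

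The rule itself picked other genes on the other scales. With TMM-scaled CPM 128 genes met it, of which 9 were among the 36 (25.0% of the 36 and 7.03% of the 128). With median-of-ratios scaling 182 genes met it, of which 3 were among the 36 (8.33% of the 36 and 1.65% of the 182). The TMM and median-of-ratios sets shared 115 genes. Among genes chosen without leaf, 31.4% of 408 held in leaf by TMM and 44.9% of 405 by median-of-ratios scaling. When the most abundant genes were taken out of the library totals, 13.6% of 383 held, and 52 genes met the rule. Which of these scales is closer to RNA per cell was not tested.

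The 3 genes that met the rule on all 3 scales were MELO3C020331.2, MELO3C014946.2 and MELO3C020441.2, named after their values were seen. MELO3C020331.2 had 179, 121 and 159 CPM in leaf and a ratio of highest to lowest group mean of 1.87 by CPM, 1.32 by TMM and 1.65 by median-of-ratios scaling. MELO3C014946.2 had ratios of 1.91, 1.38 and 1.71 on the same scales. MELO3C020441.2 had 1456, 2034 and 2838 CPM in leaf, with ratios of 1.97, 1.48 and 1.71. Leaf was the lowest group of all 3 genes by CPM and the highest of all 3 by median-of-ratios scaling. The first pair had SDs of log2 CPM of 0.37, at ranks 11 and 12 of the 36, and the last had 0.51, at rank 32.

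The 36 genes were then read in models fitted to all genes. edgeR's quasi-likelihood test on TMM-scaled counts, with p-values adjusted over 15130 genes, called 24 of them as differing somewhere among the 9 groups, where 77.2% of all genes tested and 470 of the other 571 were called. In leaf against F39 fruit at 20-25, 30-35 and 40 d, it called 23 of the steady genes higher in leaf and 0 lower. Of all genes 52.8% were called, 28.1% higher and 24.7% lower. Of the other 571 genes 262 were called, 94 higher and 168 lower. The group means of CPM in these libraries chose the genes, so the rule favoured small differences by CPM in every comparison. Within fruit the scales differed little, so this holds for the fruit comparisons below. TMM factors of 0.530 to 0.604 in leaf, against 0.870 to 1.30 in fruit, raise leaf values relative to CPM. Genes held level by CPM are thereby placed higher in leaf by TMM, so the direction in leaf follows in part from the choice. The calls, differences and intervals of the 36 are therefore a description, nothing is read from their number beside that of other genes, and no p-value is given for a member. The median log2 difference of the 36 was 0.77 (range 0.11 to 1.71), against -0.09 over all genes tested and -0.25 in the other 571. Median-of-ratios scaling moved the median over all genes to 0.16 and that of the 36 to 1.02. It called 33 of the 36 higher, where 51.7% of all genes were called. On the CPM scale the median difference of the 36 between the same groups was -0.18, so the direction for the set turns with the scale.

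**Figure D5:**
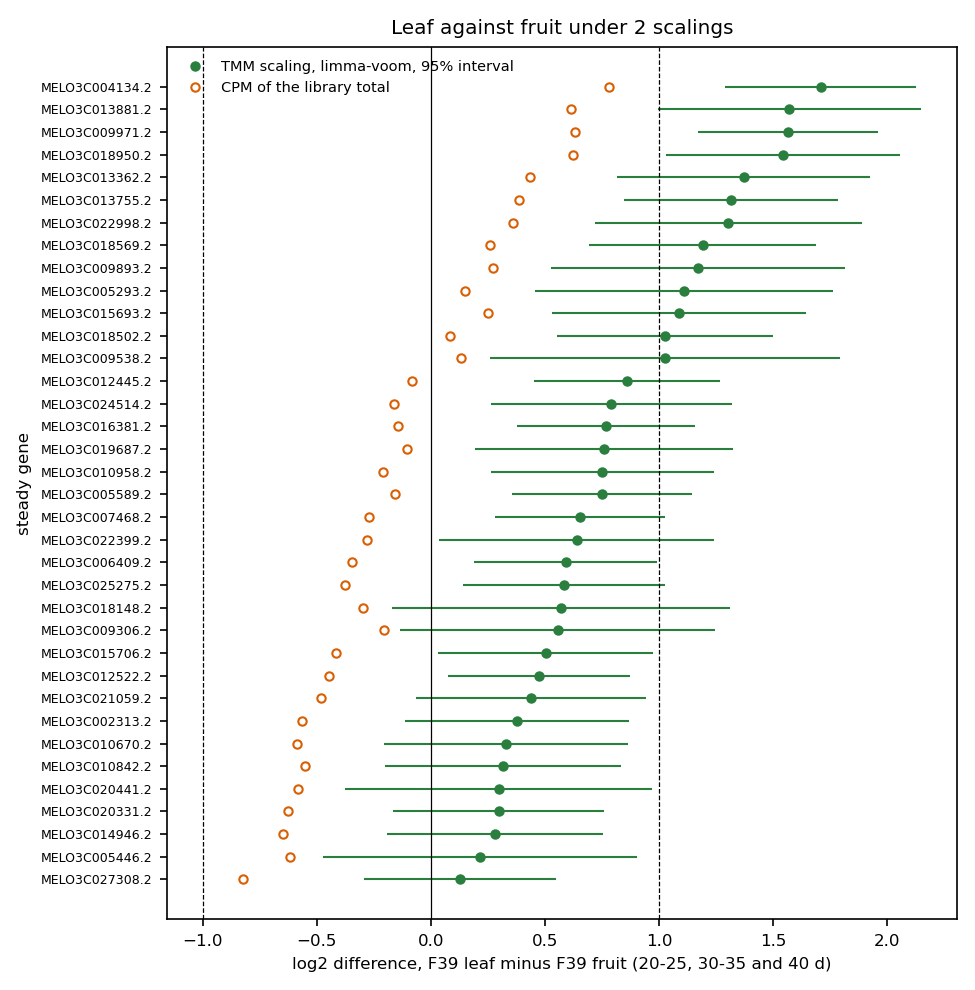
Log2 difference of F39 leaf minus F39 fruit (20-25, 30-35 and 40 d) for each of the 36 steady genes, 1 row per gene: filled green points are limma-voom estimates on the TMM scale with 95% intervals, and open orange points are differences of log2 CPM. The orange points have a median of -0.18 and lie on both sides of 0, and the green points all lie above 0; dashed lines mark 2-fold.

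The largest of these differences was that of MELO3C004134.2. It had 266, 309.9 and 290.2 CPM in leaf, against 190.1, 126 and 171 CPM in F39 fruit at 20-25 d, 161, 164 and 180.5 CPM at 30-35 d and 188, 138 and 194 CPM at 40 d. All leaf libraries lay above all of these fruit libraries, with a log2 difference of 1.71 on the TMM scale (95% interval 1.29 to 2.13, limma-voom). MELO3C009971.2 had 169, 158 and 156 CPM in leaf, against 97.5, 76.6 and 102 CPM at 20-25 d, 97.3, 111 and 139 CPM at 30-35 d and 101, 109 and 104 CPM at 40 d in F39 fruit. Again the groups did not overlap, with a log2 difference of 1.56 (95% interval 1.17 to 1.96). Both genes had leaf as their highest group and F39 fruit at 45 d as their lowest by CPM.

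In F39 fruit at 40 d against 20-25 d, the test called 3 of the 36 higher and 0 lower, where 11.2% of all genes were called higher and 15% lower. Of the other 571 genes 196 were called, 107 higher and 89 lower. MELO3C013755.2 had 139, 103 and 132 CPM at 40 d, against 85.2, 84.8 and 76.6 CPM at 20-25 d. MELO3C006409.2 had 99.4, 89.7 and 90.8 CPM at 40 d, against 54.2, 71.8 and 67.5 CPM at 20-25 d. For both the later libraries all lay above the earlier ones, with log2 differences of 0.87 (95% interval 0.32 to 1.43, limma-voom) and 0.82 (0.33 to 1.31). Without F39 20-25 d replicate 1 none of the 36 was called, and 19.1% of all genes were, against 26.1% with no library left out. Without F39 40 d replicate 3 a single gene was called, MELO3C006409.2, and MELO3C013755.2 was also not called without F39 20-25 d replicate 3.

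In TTDV fruit at 40 d against 20-25 d, as attached, the test called 1 of the 36 higher and 2 lower, where 15% of all genes were called higher and 21% lower. Of the other 571 genes 260 were called, 118 higher and 142 lower. MELO3C016381.2 had 76.8, 72.0 and 75.3 CPM at 40 d, against 143, 138 and 126 CPM at 20-25 d, a log2 difference of -0.95 (95% interval -1.43 to -0.48, limma-voom). The libraries of these ages did not overlap. MELO3C007468.2 had 142, 93.8 and 107 CPM at 40 d, against 136, 139 and 209 CPM at 20-25 d, with overlapping groups and a log2 difference of -0.58 (-1.03 to -0.13). MELO3C009971.2 had 190.1, 132 and 152 CPM at 40 d, against 80.6, 74.7 and 140.2 CPM at 20-25 d, also with overlap and a log2 difference of 0.63 (0.16 to 1.10). When files were matched by library number, none of these 3 calls remained, with log2 differences of -0.30, -0.46 and 0.30 in edgeR, and 2 other members were called higher. Leaving out TTDV 20-25 d replicate 2, TTDV 40 d replicate 2 or TTDV 40 d replicate 3 left 1 call, MELO3C016381.2, and the other calls were also lost without other libraries.

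Between the cultivars, TTDV against F39 fruit over the 4 ages, edgeR called 0 of the 36 (4 at an unadjusted p under 0.05), where 28.2% of all genes and 172 of the other 571 were called. When files were matched by library number it again called 0 of the 36, but then only 8.8% of all genes were called. As attached, DESeq2 called 3 of the 36, all lower in TTDV, where 20.3% (5118) of the 25200 genes it took were called. Of those 25200, 3500 had no count in any library, so this share is not like for like with edgeR's. Leaving out single libraries gave 0 to 3 calls in edgeR, the most without TTDV 30-35 d replicate 2. The log2 differences of the 36 lay between -0.34 and 0.30. For the difference between the cultivars' changes with age, edgeR called 0 of the 36 (1 at an unadjusted p under 0.05), where 4.82% of all genes were called, 1.76% higher and 3.05% lower. By library number it called 0 of the 36 and 0 of all genes (1414 genes at an unadjusted p under 0.05).

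An uncalled gene may still differ, so the 95% intervals of the log2 differences from limma-voom are given too. They are again a description. By CPM the rule kept the group means of these genes within 2-fold and left those of the other 571 outside it. The interval lay within 2-fold in both directions for 12 of the 36 genes in leaf against F39 fruit (11.7% of all genes tested), and for 204 of the other 571, but for 1 of the 36 with median-of-ratios scaling. It did so for 20 of the 36 in F39 fruit at 40 d against 20-25 d (10% of all genes, and 127 of the other 571). In the same ages of TTDV fruit it did so for 22 (8.4%, and 115 of the other 571). For TTDV against F39 fruit the intervals of all 36 lay within 2-fold (39.6% of all genes, and 436 of the other 571), also by library number. In all 4 comparisons the interval lay within 2-fold for 8 of the 36, where 1.49% of all genes and 42 of the other 571 did so, and with median-of-ratios scaling for 1 of the 36. The distance from the estimate to either end of the interval had medians of 0.50, 0.61, 0.61 and 0.30 on the log2 scale in the order of these comparisons, so a typical interval between 2 ages was wider than 1 log2 unit. Leaving out F39 20-25 d replicate 2 or leaf replicate 1 lowered the count for leaf to 5, and leaving out leaf replicate 2, F39 30-35 d replicate 2 or any 1 of the F39 40 d libraries lowered it to 7. Leaving out TTDV 20-25 d replicate 2 lowered the count for the ages of TTDV fruit to 12.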

How the data were processed

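RNA of powdered frozen leaf and fruit was extracted with Trizol, and cDNA was made with a NuGen kit, per the labels' protocols. The authors deposited raw whole-number counts per gene in 1 file for each library. The submitters' processing notes list STAR 2.5.4b and edgeR 3.12.1 without saying what each did. For strand, annotation, genome build and the counting program, details were not given in the sources used here. Genes that overlap or have near-identical copies may therefore share counts.

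CPM were computed from library totals, and SDs from log2 CPM without a pseudocount. The tests used edgeR 4.0.16 under R 4.3.3 (filterByExpr, which kept 15130 genes, TMM, 1 model of 9 group means over 27 libraries, robust quasi-likelihood F-test, Benjamini-Hochberg threshold 0.05). Intervals came from limma 3.58.1 (voom), and DESeq2 1.42.0 was an alternative. Scripts were tested on counts simulated with each gene's own dispersion. Intervals covered the true differences at close to their stated rate, but the edgeR test missed nearly all 2-fold changes where few genes changed. That rate cannot be carried over to comparisons with many calls, such as 36% of all genes between the ages of TTDV fruit. There edgeR called members at log2 differences of -0.57 and 0.62. An uncalled member may still differ. No pair of the 27 files was identical, and replicates differed by more than counting noise.

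The members and tests were chosen with earlier results of these data known. Genes were named by rule: the 10 smallest and 3 largest SDs, 3 on each side of each threshold, the 3 smallest M, and in each contrast at most 2 called members per direction. Lists by product name were not used, since no identifier was paired with a name. Alternatives tried were the scaling, both thresholds, group medians, single libraries, groups and libraries left out, the filter, the samples in the fit and the match of files by library number.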

Additional observations from a re-analysis of the deposited data

How the results depend on the processing

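The number of steady genes, 36, was 128 with TMM-scaled CPM, 182 with median-of-ratios scaling, 87 with a minimum of 20 CPM, 12 with 100 CPM and 212 with none. It was 2 with the ratio limit at 1.5, 156 with the limit at 3, 0 over single libraries, 386 without leaf and 82 from the 15 libraries with agreeing numbers. With group medians it was 35, of which 26 were among the 36, and leaving out single libraries gave 30 to 39. The median SD of log2 CPM lay between 0.387 and 0.411 on leaving out single libraries. The steady genes called in TTDV against F39 fruit numbered 2 with median-of-ratios scaling, 3 with DESeq2 and 1 with only the compared groups fitted (0 to 3 on leaving out libraries). Those settings called 28.4% of the genes tested, 20.3% (5118) of the 25200 genes DESeq2 took, and 28.7% of the genes tested. The main settings called 28.2% (4262). The DESeq2 shares are over all 25200 genes, 3500 of them without any count, so they are not like for like with the others. Those called between F39 fruit at 40 d and 20-25 d numbered 1 with no filter on low counts, 5 with DESeq2 and 5 with only the compared groups (0 to 4 on leaving out libraries). Here 14.9%, 19.5% (4917 of 25200) and 32.5% of the genes taken were called, against 26.1% (3954) with the main settings. For the same ages of TTDV fruit there was 1 with no filter and 1 with only the compared groups (1 to 4 on leaving out libraries), and 2 by library number. The shares over all genes tested were 21.6%, 37.7% and 35.1%, against 36% with the main settings. For leaf against F39 fruit there were 20 to 27 calls, and over the 9 groups 17 to 27, on leaving out libraries. For leaf, 20 steady genes and 45.4% of all genes were called without leaf replicate 2. Without F39 40 d replicate 3 these were 27 and 49.6%, and with all libraries 23 and 52.8%. Intervals within 2-fold for leaf numbered 1 with median-of-ratios scaling and 5 to 13 on leaving out libraries. For the ages of TTDV fruit they numbered 12 to 23, and for those of F39 fruit 15 to 22. The cause of these changes was not tested. The number of libraries, 3 a group, limits the precision more than depth, since the median SD of log2 CPM within groups, 0.35, was above the counting error of the lowest count, 0.0798. No paired analysis was made. The library numbers in the titles are all different and do not tell whether libraries of several groups share a plant.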
